A study of Mus musculus with 14 samples.

Results

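Immunoglobulin variable (V) gene segments were taken as all genes of the deposited count table whose biotype is IG_V_gene. There were 218 of them among 54532 genes. By name prefix, 113 were heavy chain segments (Ighv, chromosome 12), 100 kappa light chain segments (Igkv, chromosome 6) and 3 lambda light chain segments (Iglv, chromosome 16). A further 2, Gm43218 and Gm42543, carry other names and lie on chromosome 6. No expression value entered this choice. At least 1 read was counted for 212 of the 218 in some library, and 190 passed the low-count filter that came before testing: 91 Ighv, 95 Igkv, 3 Iglv and Gm43218. The 6 segments without a count in any library were Ighv7-2, Ighv16-1, Ighv1-24, Ighv1-16, Ighv1-62-1 and Igkv1-131.

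An antibody is built from heavy chains and from light chains of the kappa or lambda type, and each B cell joins a V segment of each chain to short joining segments, with a diversity segment between them in the heavy chain. Transcription then runs from the promoter of the chosen V segment through to the constant gene, so the V segment reads of a tissue report which segments its B cells and antibody-secreting plasma cells carry. Resting B cells hold little immunoglobulin RNA per cell and plasma cells a great deal, and clones that expand carry their V segments with them.

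Adult mice with the genotype TertCreERT2/+ and Rosa26LSL-tdTomato/+ were used, in which tamoxifen lets Cre, driven from the Tert locus, start expression of the red protein tdTomato. Submandibular (salivary) gland cells were sorted as DAPI-EpCAM+, EpCAM being a surface protein of epithelial cells, and as tdTomato+ (called Tert+) or tdTomato- (called Tert-), from mice with or without 15 Gy of radiation (RT). Each RNA-seq library was made from 1 ng of RNA. All 4 groups share both alleles and the sort: 3 libraries of Tert+ and 3 of Tert- cells came from mice without RT, and 4 of Tert+ and 4 of Tert- cells from mice given RT. The time from RT to sorting, the tamoxifen schedule and an exact age were not given in the sources used here, nor was it said whether each replicate was an animal of its own. The p-values therefore speak only of the spread among these libraries, which may be technical. Groups follow the sample titles. A separate label for the cell type named the opposite population in 14 of 14 libraries, so every direction between Tert+ and Tert- rests on the titles.

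Total counts ran from 5520412 to 15943597 per library, of which 14993 to 67261 (0.220% to 0.497%) fell on V segments. The libraries did not look mainly epithelial. A list of 8 epithelial genes (Epcam, 6 keratins and Cdh1) summed to 101 to 576 CPM (counts scaled to a common library total) per library, while 10 genes of mature B cells, among them Cd79a and Ms4a1, summed to 9313 to 15382 CPM. Macrophage genes also differed between the sorted populations: 7 of them summed to 119 to 283 CPM in Tert+ and 1535 to 1852 CPM in Tert- without RT, and to 95.3 to 191 and 252 to 1155 CPM after RT. Their part in the results below was not tested.

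All 218 segments have the same chromosome, start and end in the GENCODE M21 annotation of GRCm38 (mm10), and each has a V exon there of 293 to 351 bases (median 305). The exons are close copies of each other. The median identity of an exon to its nearest relative was 94.7%, 41 exons were at least 97% identical to another, and those of Ighv1-62-2 and Ighv1-71 were identical. How reads shared between copies were counted, and whether strand was used, was not given in the sources used here, so values of single segments are uncertain where their exons are alike. A sum over a locus does not change with how reads are divided among its own copies, but it would with reads that were left out or assigned by strand, and this was not tested. The pairs and segments on which results below turn are shown for that reason. Each line gives the first 150 coding bases of the V exon, 5′ to 3′, from GRCm38 with the exon of GENCODE M21. Capitals mark bases that differ from the segment named for comparison. Iglv1 (chr16:19085172-19085321, minus strand) and Iglv2 (chr16:19260556-19260705, minus strand) are compared with each other and differ at 9 of 305 exon bases, 4 of them in this stretch, whereas Iglv3 differs from Iglv1 at 155 of 324.
Iglv1: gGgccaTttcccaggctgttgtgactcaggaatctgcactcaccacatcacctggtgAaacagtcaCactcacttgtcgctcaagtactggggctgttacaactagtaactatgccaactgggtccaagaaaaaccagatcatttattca
Iglv2: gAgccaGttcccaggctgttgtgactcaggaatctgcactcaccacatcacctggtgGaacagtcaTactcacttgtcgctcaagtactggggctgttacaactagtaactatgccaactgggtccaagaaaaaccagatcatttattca

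Igkv13-84 (chr6:68939770-68939919, plus strand) and Igkv13-85 (chr6:68930417-68930566, minus strand) are likewise compared with each other. They differ at 9 of 298 bases, all inside the stretch shown, and both were lower after RT.
Igkv13-84: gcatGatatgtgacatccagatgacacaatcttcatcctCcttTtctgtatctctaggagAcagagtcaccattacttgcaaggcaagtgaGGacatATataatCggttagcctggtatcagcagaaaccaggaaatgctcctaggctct
Igkv13-85: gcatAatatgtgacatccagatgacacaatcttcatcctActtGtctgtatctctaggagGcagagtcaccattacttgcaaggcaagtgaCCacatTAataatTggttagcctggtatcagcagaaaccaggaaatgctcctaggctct

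Igkv4-72 (chr6:69227007-69227156, minus strand) is compared with Igkv4-68, its nearest relative at 95.7% identity. It was the segment whose difference after RT held under the widest set of settings.
Igkv4-72: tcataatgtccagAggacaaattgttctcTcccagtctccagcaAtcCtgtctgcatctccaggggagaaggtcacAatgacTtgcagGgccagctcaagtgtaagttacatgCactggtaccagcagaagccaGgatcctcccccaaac

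Igkv3-1 (chr6:70703868-70704017, plus strand, against Igkv3-2, 92.9% identity) and Ighv1-9 (chr12:114583724-114583873, minus strand, against Ighv1-63, 90.2% identity) each peaked in a single library, and Igkv6-15 (chr6:70406617-70406766, minus strand, against Igkv6-13, 95.3% identity) was the most used kappa segment.
Igkv3-1: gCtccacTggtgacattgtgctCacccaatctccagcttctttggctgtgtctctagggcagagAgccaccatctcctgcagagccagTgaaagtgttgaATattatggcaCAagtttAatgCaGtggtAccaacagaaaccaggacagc
Ighv1-9: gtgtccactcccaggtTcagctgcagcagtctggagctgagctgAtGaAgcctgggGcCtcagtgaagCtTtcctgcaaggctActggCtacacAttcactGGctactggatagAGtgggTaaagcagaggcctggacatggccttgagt
Igkv6-15: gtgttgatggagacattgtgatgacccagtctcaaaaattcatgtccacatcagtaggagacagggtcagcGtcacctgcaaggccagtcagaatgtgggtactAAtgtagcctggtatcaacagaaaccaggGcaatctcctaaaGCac

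V segment RNA was present in every library. Summed Ighv expression in the Tert+ libraries without RT was 536, 846 and 959.9 CPM (mean 780.4 ± 219, SD, n = 3), and in the Tert- libraries without RT it was 423, 834 and 724 CPM (660.2 ± 213, n = 3). After RT the sums were 640.2, 550.5, 637 and 675 CPM in Tert+ (626 ± 53.1, n = 4) and 524, 497, 486 and 411 CPM in Tert- (479.7 ± 48.3, n = 4). Within each population the libraries with and without RT overlapped. After RT all 4 Tert+ libraries lay above the 4 Tert- libraries, while without RT the populations overlapped, and replicate 1 without RT was the lowest of its group in both.

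Summed Igkv expression was 1930.35, 2917 and 3214 CPM in Tert+ without RT (2687 ± 672, n = 3) and 1773, 2953 and 2712 CPM in Tert- without RT (2479 ± 623, n = 3). The values after RT were 2269.9, 1748, 2110.5 and 2450.4 CPM in Tert+ (2145 ± 299, n = 4) and 1941, 1756, 1732 and 1400.15 CPM in Tert- (1707 ± 225, n = 4). Again the ranges overlapped within each population, and they overlapped between the populations in both RT states.

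Summed Iglv expression was 294, 499.9 and 789.9 CPM in Tert+ without RT (528 ± 249, n = 3) and 236, 438 and 442 CPM in Tert- without RT (372 ± 118, n = 3). After RT it was 419, 367, 542 and 463 CPM in Tert+ (448 ± 74.0, n = 4) and 217, 243, 297 and 253 CPM in Tert- (252 ± 33.3, n = 4). The 4 Tert+ libraries after RT all lay above the 4 Tert- libraries after RT, while without RT the populations overlapped.

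**Figure D1:**
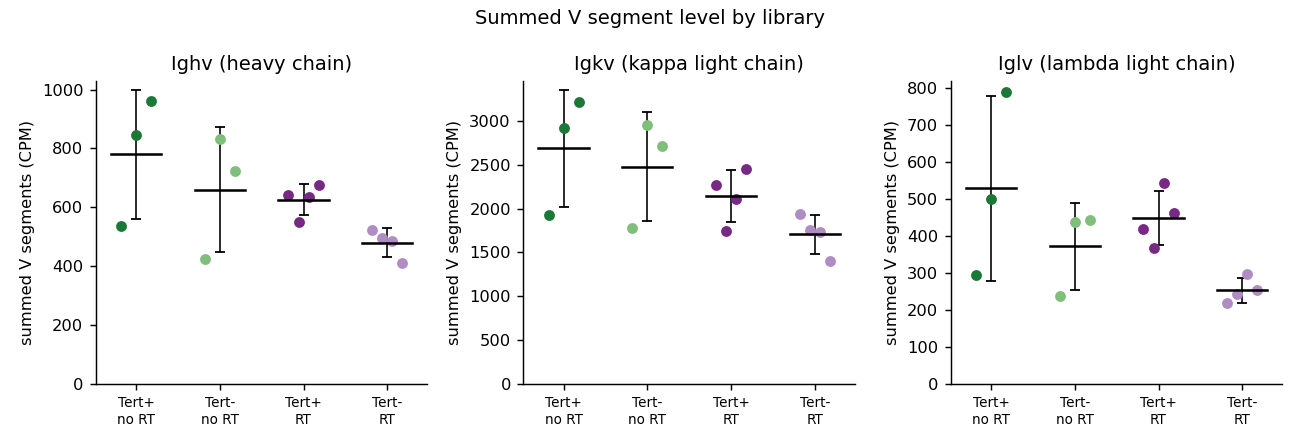
Summed expression of Ighv, Igkv and Iglv segments in CPM, 1 panel per locus, by group, with 1 point per library, a line at the mean and a bar of 1 SD. Libraries with and without RT overlap within each population, and after RT the 4 Tert+ libraries lie above the 4 Tert- libraries for Ighv (550.5 to 675 against 411 to 524 CPM) and Iglv (367 to 542 against 217 to 297 CPM).

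None of the 3 loci passed an adjusted p of 0.05 in any of 7 comparisons with edgeR. The comparisons were Tert+ against Tert- without and with RT, RT against no RT in each population, the difference of these RT effects, and the average RT and Tert effects over the other factor. The average log2 fold change after RT was -0.43 for Igkv (SE 0.14, adjusted p = 0.0519), -0.39 for Ighv (SE 0.15, adjusted p = 0.0975) and -0.40 for Iglv (SE 0.19, adjusted p = 0.185). Igkv lay close to the threshold, and Ighv and Igkv passed it without either replicate 1 library of the groups without RT: Igkv then reached -0.53 (adjusted p = 0.0123) without Tert+ replicate 1 and -0.52 (0.0121) without Tert- replicate 1, and Ighv -0.50 with both (0.0235 and 0.0142). Without 1 library, the adjusted p with edgeR rose to as much as 0.145 for Igkv and 0.260 for Ighv. With the replicate number as a block it was 0.133 and 0.205. For RT comparisons that block joined equal numbers across RT states, which no label links, and did not pair Tert+ with Tert- libraries. With same-numbered Tert+ and Tert- libraries summed, the adjusted p was 0.173 and 0.270. In these bulk samples, fewer B cells and less V segment RNA per cell cannot be told apart. Between populations the largest locus difference was that of Iglv after RT, 0.83 log2 units higher in Tert+ (SE 0.26, adjusted p = 0.440).

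The proportion of V segment to constant gene RNA was measured in each group. There were 49.7 ± 2.17 Igkv CPM per 100 CPM of the kappa constant gene Igkc in Tert+ without RT, 49.4 ± 1.76 in Tert- without RT, 49.3 ± 0.791 in Tert+ after RT and 47.4 ± 3.52 in Tert- after RT. For Ighv per 100 CPM of the 8 heavy constant genes the values were 7.02 ± 0.678, 6.45 ± 0.724, 6.92 ± 0.0830 and 6.68 ± 0.806 in the same order. Iglv per 100 CPM of Iglc genes stood at 28.4 ± 2.20, 28.2 ± 2.41, 26.1 ± 1.78 and 26.9 ± 0.556. The differences between groups were within about the spread of libraries in each of these ratios.

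Reads were spread over most of the germline repertoire. In each library 95 to 104 of the 113 Ighv, 94 to 98 of the 100 Igkv and all 3 Iglv segments had a count. Usage is given from here on as a segment's share of its locus after each count is divided by the segment's length. The 10 most used segments held 37.7% of Ighv and 34.1% of Igkv usage, the top 20 held 55.0% and 55.9%, and 17 segments were needed to reach 50% in either locus. At the other end, 24 Ighv and 19 Igkv segments stayed under 0.1%.

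Among heavy chain segments, Ighv5-6 was the most used, with a mean of 5.84% over 14 libraries (range 3.88% to 7.54%). Ighv9-3 followed at 5.71% (3.93% to 7.19%), then Ighv3-6 at 4.94% (3.64% to 6.24%), Ighv1-9 at 4.43% (2.88% to 12.7%), Ighv5-4 at 3.81% (2.92% to 5.48%) and Ighv8-12 at 3.47% (2.69% to 4.75%). The ranges of these neighbours in the order overlap, so the order itself is not settled by these libraries. In every library the largest Ighv segment was Ighv5-6 or Ighv9-3, apart from Ighv3-6 in Tert- after RT replicate 1 (6.24%) and Ighv1-9 in Tert- without RT replicate 1. By family, the 53 segments of Ighv1 held 42.8% of Ighv usage, Ighv5 19.0%, Ighv9 8.31% and Ighv3 6.12%.

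Among kappa segments, Igkv6-15 was the largest in 14 of 14 libraries, with a mean of 6.70% (4.83% to 11.7%). Igkv19-93 followed at 4.04% (3.18% to 4.91%), Igkv6-23 at 3.68% (2.74% to 4.22%), Igkv1-117 at 3.29% (2.72% to 4.09%), Igkv3-4 at 2.98% (1.99% to 3.74%) and Igkv17-127 at 2.91% (2.16% to 3.57%). Below the first place the ranges overlap throughout. By family, Igkv6 with 9 segments held 17.3% of Igkv usage, Igkv4 with 26 segments 14.8%, and Igkv3 and Igkv8 11.1% each.

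**Figure D2:**
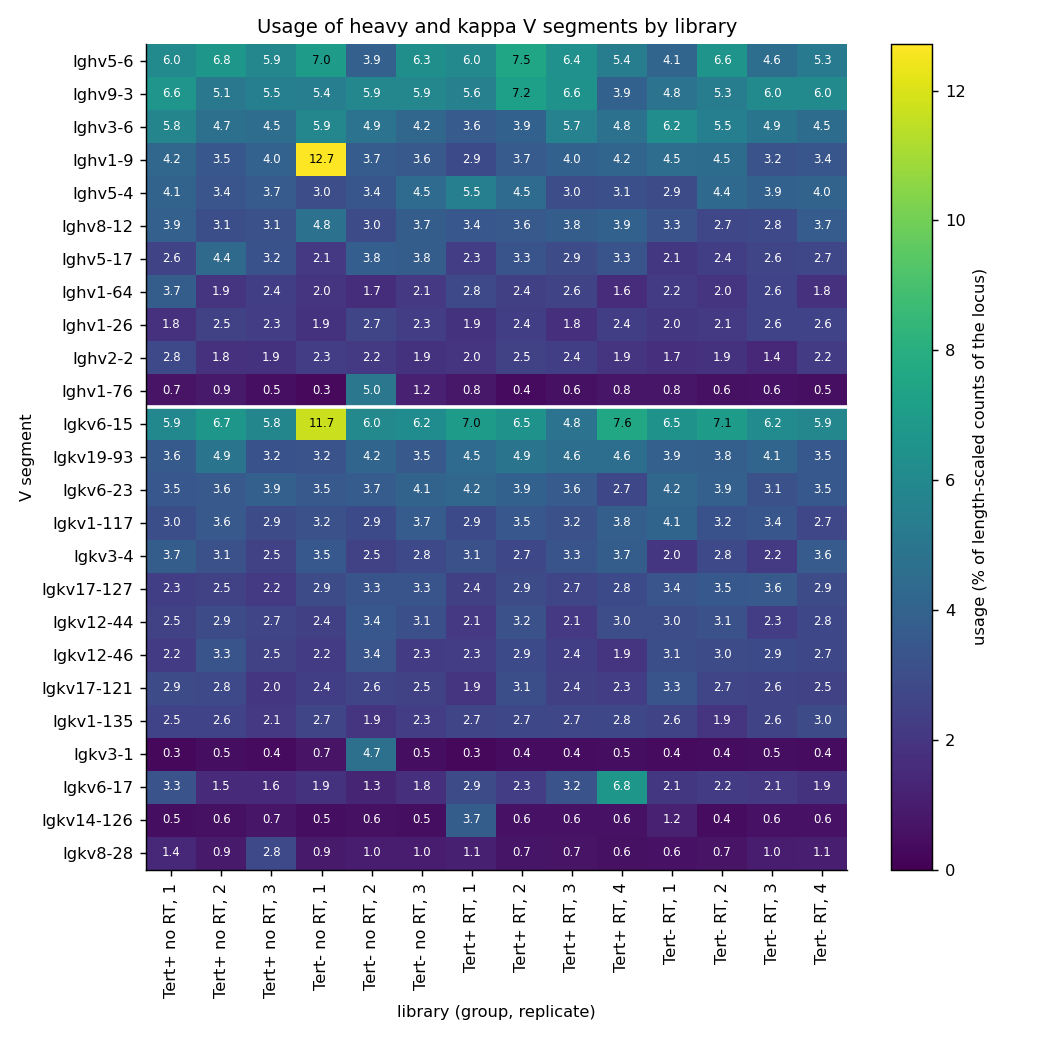
Usage of the 10 most used Ighv and Igkv segments and of 5 segments that peak in a single library, as percent of their locus after division by length, with 1 column per library and colour for the share. Igkv6-15 is the highest (brightest) kappa entry in all 14 libraries, and Ighv1-9 stands out in Tert- without RT replicate 1 (12.7%).

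A few segments were high in a single library. These were picked after their values were seen and carry no test. Ighv1-9 took 12.7% of Ighv usage in Tert- without RT replicate 1, against at most 4.54% in the other 13 libraries, and in that same library Igkv6-15 took 11.7% of Igkv usage. In Tert- without RT replicate 2, Igkv3-1 took 4.68% of Igkv usage, 10.7 times the median of the other libraries, and Ighv1-76 took 5.02% of Ighv usage, 8.05 times that median. In each of these libraries a heavy and a kappa segment were both at their highest. Igkv6-17 peaked in Tert+ after RT replicate 4 at 6.75% (169.3 CPM), and Igkv14-126 in Tert+ after RT replicate 1 at 3.73% (82.4 CPM).

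Diversity was measured as the effective number of segments, the number of equally used segments that would give the same chance of drawing the same segment from a pair of reads. For Ighv it was 39.2, 43.0 and 45.3 in Tert+ without RT (mean 42.5 ± 3.09, SD, n = 3) and 27.5, 43.5 and 41.2 in Tert- without RT (37.4 ± 8.64, n = 3). After RT it was 43.7, 39.1, 40.2 and 44.8 in Tert+ (41.9 ± 2.71, n = 4) and 46.2, 42.2, 46.1 and 45.4 in Tert- (44.99 ± 1.89, n = 4). The lowest value, 27.5, belongs to the library in which Ighv1-9 peaked. The other 13 libraries lay between 39.1 and 46.2.

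For Igkv the effective numbers were 45.3, 42.8 and 47.0 in Tert+ without RT (45.03 ± 2.12, n = 3) and 34.0, 44.1 and 45.1 in Tert- without RT (41.1 ± 6.15, n = 3). After RT they were 42.8, 42.9, 46.8 and 37.1 in Tert+ (42.4 ± 4.01, n = 4) and 43.7, 43.8, 46.6 and 46.4 in Tert- (45.1 ± 1.58, n = 4). The lowest values again fall in a library with a peak, 34.0 in Tert- without RT replicate 1 (Igkv6-15) and 37.1 in Tert+ after RT replicate 4 (Igkv6-17). The smallest unadjusted p among the 24 exact two-sided permutation tests of effective number and of the largest single share was 0.0571, for Ighv in Tert- after RT against no RT (1.23-fold higher after RT, with 0.0286 the smallest p this design allows). It was 0.571 after adjustment over the 30 tests that also include the lambda share. Without 1 library this Ighv fold ran from 1.06 to 1.34. Tests of 3 libraries against 3 cannot go below 0.1.

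The make-up of V usage was about as alike between groups as within them. The share of usage that a pair of libraries had in common (Bray-Curtis similarity) had a median of 83.4% for Ighv and 88.0% for Igkv within a group. Between libraries with and without RT the medians were 84.2% and 87.0%. Between Tert+ and Tert- libraries of the same RT state they were 83.9% and 88.0% for same-numbered libraries and 82.9% and 86.2% for others. For 6 of 14 libraries the most alike library by Ighv usage was one of the other RT state, and for 8 of 14 by Igkv usage. With 6 libraries without RT and 8 with it, such matches are common without any grouping by RT.

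Usage was uneven along the loci. The 29 Ighv segments nearest the constant gene Ighm, 158 to 648 kb from it, held 28.3% of Ighv usage, the next 28 held 30.2%, the next 28 17.4% and the farthest 28, at 1874 to 2579.6 kb, 24.2%. For Igkv, the 25 segments nearest Igkc, 22.8 to 588 kb away, held 35.8%, and the following sets of 25 held 21.9%, 18.3% and 24.0%. All Ighv segments lie on the minus strand. Of the Igkv segments, 38 on the plus strand held 39.4% of usage and 62 on the minus strand 60.6%.

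After RT, 8 kappa segments were called lower in the comparison averaged over both populations, and no V segment was called higher. The fit took the 14 libraries as independent. With edgeR at an adjusted p of 0.05, 13.4% of all 15915 genes tested passed in either direction and 7.16% passed as lower, while 8 of the 190 tested V segments (4.21%) passed, all as lower. All 8 were Igkv segments (8.42% of the 95 tested), with 0 of 91 Ighv and 0 of 3 Iglv segments. The share of V segments called lower was thus under that of all genes, and that of Igkv segments was near it. Median log2 fold changes were -0.33 for Ighv, -0.38 for Igkv and -0.49 for Iglv, so the 3 loci shifted the same way. Ighv segments held 90959 counts in all and Igkv segments 322148, and the part of this depth in the calls was not tested. At an unadjusted p of 0.05, 39 of the 190 were lower and 0 higher, where 15.4% of all genes were lower and 13.6% higher, and 164 of 190 had a log2 fold change below 0. Their median was -0.36, against -0.02 for all genes tested.

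Within a single population less passed. In Tert- cells, where 1.68% of all genes passed in either direction and 0.886% as lower, Igkv3-1 was the 1 V segment called lower (log2 fold change -2.89, SE 0.68, adjusted p = 0.0442 with edgeR) and 24 of 190 were lower and 0 higher at an unadjusted p of 0.05, against 10.7% and 8.34% of all genes. In Tert+ cells, where 1.95% of all genes passed, 0 V segments were called with edgeR or limma voom and 1 with DESeq2, and 12 of 190 were lower and 0 higher at an unadjusted p of 0.05, against 9.15% and 8.7% of all genes. For the difference of the RT effects between the populations, 0% of all genes passed, and 0 V segments with edgeR, DESeq2 or voom, with 1 segment higher and 1 lower at an unadjusted p of 0.05 (2.16% and 1.5% of all genes).

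**Figure D3:**
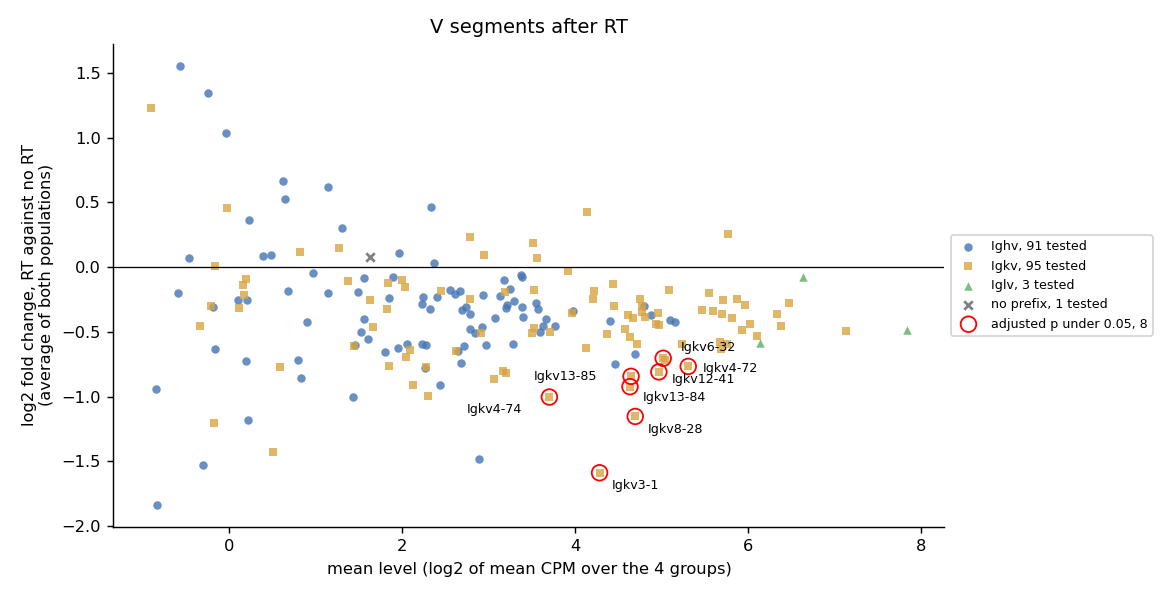
Average log2 fold change after RT against the log2 mean CPM for the 190 V segments tested, coloured by locus, with the 8 segments past the threshold circled. Most points lie below 0 (164 of 190), and the circled ones are all Igkv. By locus, 77 of 91 Ighv, 84 of 95 Igkv and 3 of 3 Iglv points lie below 0.

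Igkv4-72 (chr6:69226854-69227433, minus strand) had the smallest adjusted p. Its expression was 31.2, 55.7 and 55.6 CPM in Tert+ without RT and 49.6, 50.4 and 57.5 CPM in Tert- without RT, then 26.7, 28.4, 32.7 and 29.2 CPM in Tert+ after RT and 38.95, 20.3, 32.3 and 26.6 CPM in Tert- after RT. The Tert- groups did not overlap, and in Tert+ the lowest library without RT lay within the range after RT. The average log2 fold change was -0.77 (SE 0.17, adjusted p = 0.0101), and the call held without each of the 14 libraries in turn.

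Igkv8-28 (chr6:70143593-70144166, minus strand), which shares 97.8% of its exon with Igkv8-19, was at 27.2, 26.9 and 90.3 CPM in Tert+ without RT and 16.6, 29.4 and 27.95 CPM in Tert- without RT. After RT it was at 25.5, 13.1, 14.7 and 13.9 CPM in Tert+ and 11.7, 11.9, 18.2 and 15.1 CPM in Tert-. The Tert+ groups did not overlap and the Tert- groups did. Its average log2 fold change was -1.15 (SE 0.29, adjusted p = 0.0170), which became -0.74 (0.0713) without the highest library, Tert+ without RT replicate 3.

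The near-copies Igkv13-84 and Igkv13-85, shown above, were both lower. Igkv13-84 (chr6:68939602-68940067) was at 22.8, 38.0 and 42.9 CPM in Tert+ without RT, 18.4, 42.2 and 30.2 CPM in Tert- without RT, 22.7, 12.6, 17.2 and 30.02 CPM in Tert+ after RT and 17.6, 9.72, 14.5 and 14.5 CPM in Tert- after RT. Igkv13-85 (chr6:68930269-68930734) was at 14.8, 37.9 and 35.4 CPM, 24.4, 40.2 and 41.0 CPM, 20.1, 12.3, 18.7 and 19.9 CPM, and 18.7, 20.6, 17.6 and 15.5 CPM in the same groups. For both, the Tert- groups did not overlap and the Tert+ groups did. The average log2 fold changes were -0.92 (SE 0.25, adjusted p = 0.0237) and -0.84 (SE 0.22, adjusted p = 0.0224). Both calls were lost without Tert+ replicate 2 or 3 or Tert- replicate 2 or 3 of the groups without RT, with a highest adjusted p of 0.0794 and 0.0747.

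Igkv3-1 (chr6:70703578-70704177) had the largest fold change and rests on 1 library. It was at 5.51, 13.02 and 11.6 CPM in Tert+ without RT and at 11.3, 134.6 and 11.9 CPM in Tert- without RT, against 6.21, 7.02, 8.99 and 10.8 CPM in Tert+ and 7.36, 6.91, 8.05 and 6.03 CPM in Tert- after RT. The library at 134.6 CPM is Tert- without RT replicate 2, in which Igkv3-1 and Ighv1-76 peaked. The average log2 fold change was -1.59 (SE 0.47, adjusted p = 0.0354), and -0.50 (0.331) without that library. In Tert- alone, -2.89 became -0.70 (0.535). With limma voom the averaged change was not called (-1.12, adjusted p = 0.264), and DESeq2 gave it no adjusted p.

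The other 3 segments called were Igkv4-74, Igkv12-41 and Igkv6-32. Igkv4-74 changed by -1.004 on the log2 scale (SE 0.30, adjusted p = 0.0360), from 7.60 to 27.5 CPM per library without RT to 5.24 to 15.4 CPM after RT. Igkv12-41 changed by -0.81 (SE 0.23, adjusted p = 0.0327), from 22.75 to 62.7 CPM without RT to 17.4 to 26.6 CPM after RT. Igkv6-32 changed by -0.70 (SE 0.20, adjusted p = 0.0340), from 24.4 to 52.7 CPM to 14.9 to 36.9 CPM. The calls held without 5, 7 and 4 of the 14 libraries left out in turn, respectively, and their highest adjusted p was 0.108, 0.124 and 0.102.

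**Figure D4:**
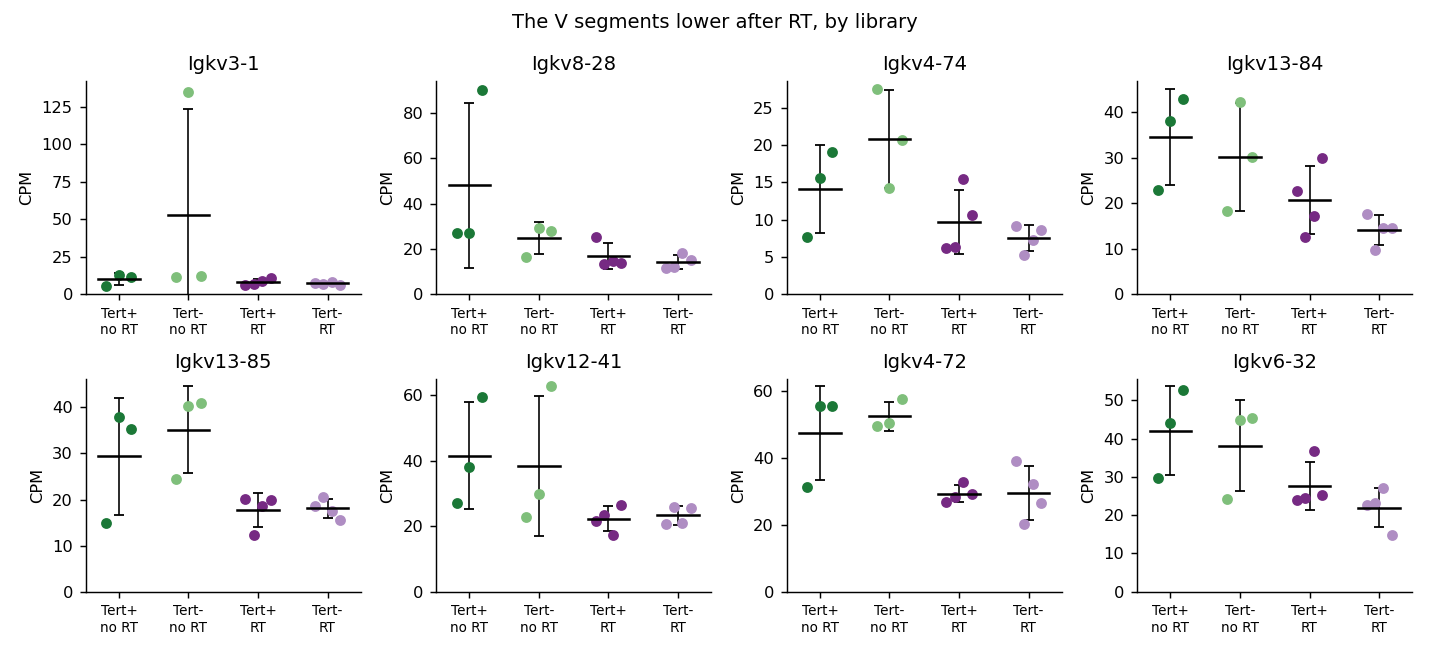
Expression in CPM of the 8 segments called after RT, 1 panel per segment, by group, with 1 point per library, a line at the mean and a bar of 1 SD. Igkv3-1 is set apart by the library at 134.6 CPM, and the group means of Igkv4-72 are lower after RT in both populations.

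The number of calls depended on the libraries. Without Tert+ or Tert- replicate 1 of the groups without RT, 23 and 21 segments were called lower, whereas without Tert+ replicate 2 or 3 of that state 2 and 1 were called, and without Tert- replicate 2 or 3, 4 and 4. Leaving out a library after RT gave 4 to 11 calls. With same-numbered Tert+ and Tert- libraries summed to 7 samples, 1 of 196 segments tested was called lower, Igkv4-72, against 2.02% of all features.

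The most used segments did not pass. Igkv6-15 was at 107.9, 184.5 and 176 CPM in Tert+ and 196, 166 and 157 CPM in Tert- without RT, and at 149.9, 106.9, 95.9 and 174.6 CPM in Tert+ and 119, 117, 101 and 78.3 CPM in Tert- after RT. Only the Tert- groups stood apart. The average log2 fold change was -0.49 (SE 0.16, adjusted p = 0.0553 with edgeR). For Ighv1-9, the heavy segment with the smallest p, it was -0.67 (SE 0.22, adjusted p = 0.0519), for Ighv5-6 -0.42 (SE 0.17, adjusted p = 0.118) and for Ighv9-3 -0.40 (SE 0.18, adjusted p = 0.151).

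Summing close copies by family gave 37 families to test. After RT, 7.38% of all features in that table were called lower with edgeR, and 5 of the 37 families were: Igkv13 (log2 fold change -0.88, SE 0.20, adjusted p = 0.0114), Igkv8 (-0.61, adjusted p = 0.0355), Igkv3 (-0.52, adjusted p = 0.0372), Igkv4 (-0.48, adjusted p = 0.0376) and Igkv1 (-0.40, adjusted p = 0.0413). Igkv13 summed to 64.1 ± 23.0 CPM in Tert+ and 65.5 ± 20.6 in Tert- without RT, and to 38.4 ± 10.7 in Tert+ and 32.1 ± 2.89 in Tert- after RT. No heavy or lambda family passed, and 34 of the 37 families had a log2 fold change below 0. Leaving out 1 library gave 1 to 13 families, with 13 and 11 without Tert+ or Tert- replicate 1 of the groups without RT. With same-numbered Tert+ and Tert- libraries summed, 0 of the 37 families were called lower.

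Between Tert+ and Tert- cells no V segment passed. Without RT, 0.0377% of all genes passed with edgeR, and 0 of 190 V segments (0 with DESeq2 and voom as well), with 6 higher and 1 lower in Tert+ at an unadjusted p of 0.05 (1.36% and 3.12% of all genes). After RT, 0.0126% of all genes passed, and 0 V segments with edgeR and voom but 2 with DESeq2, Iglv2 and Igkv6-17, with 18 higher and 0 lower at an unadjusted p of 0.05 (3.83% and 3.63% of all genes). Averaged over both RT states, 0.22% of all genes passed, and 0 V segments with edgeR and voom and 1, Iglv2, with DESeq2, with 25 higher and 1 lower at an unadjusted p of 0.05 (3.46% and 4.74% of all genes). In that average 158 of the 190 segments had a log2 fold change above 0, with a median of 0.31, against 0.0047 for all genes. The median was 0.16 without Tert- replicate 1 of the groups without RT (132 of 190 above 0) and 0.17 without Tert+ replicate 3 of that state (142 of 190).

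Iglv2 came closest to the threshold. It was at 50.7, 95.6 and 169.8 CPM in Tert+ without RT and 37.9, 65.3 and 78.2 CPM in Tert- without RT, and at 81.3, 65.3, 89.2 and 93.4 CPM in Tert+ and 34.5, 32.0, 36.2 and 34.9 CPM in Tert- after RT. The groups overlapped without RT and not after RT, where every Tert+ library lay above every Tert- library. The log2 difference was 1.26 after RT (SE 0.30, adjusted p = 0.331) and 1.03 in the average (SE 0.22, adjusted p = 0.0896), and the latter was called without Tert+ replicate 1 of the groups without RT (1.20, adjusted p = 0.0118). Its near-copy Iglv1 differed by 0.71 in the average (SE 0.22, adjusted p = 0.328) and Iglv3 by 0.33 (SE 0.17, adjusted p = 0.653).

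Igkv6-17 differed by 1.27 between the populations after RT (SE 0.33, adjusted p = 0.337), with Tert+ libraries at 67.9, 41.3, 70.0 and 169.3 CPM and Tert- libraries at 41.5, 39.6, 37.2 and 27.2 CPM. The groups overlapped, and without Tert+ after RT replicate 4 the difference was 0.72.

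The lambda share, Iglv as a percent of Igkv plus Iglv usage, was 12.8%, 14.1% and 19.1% in Tert+ without RT (mean 15.3% ± 3.33, SD, n = 3) and 11.3%, 12.4% and 13.5% in Tert- without RT (12.4% ± 1.10, n = 3). After RT it was 15.0%, 16.8%, 19.8% and 15.3% in Tert+ (16.7% ± 2.17, n = 4) and 9.69%, 11.7%, 14.1% and 14.8% in Tert- (12.6% ± 2.32, n = 4). After RT the populations did not overlap, and without RT they did. The share was 1.34-fold higher in Tert+ after RT (exact two-sided permutation p = 0.0286, the smallest that 4 against 4 allows) and 1.28-fold higher in the average over RT states (exact permutation p = 0.00714), but neither passed after adjustment over 30 tests (0.429 and 0.214). RT itself moved the share 1.05-fold (exact permutation p = 0.569).

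The constant genes give the light chain balance from another part of the transcripts. Iglc genes made up 25.0% ± 4.63 of Igkc plus Iglc in Tert+ and 20.9% ± 1.99 in Tert- without RT, and 28.5% ± 2.76 in Tert+ and 20.9% ± 2.76 in Tert- after RT, with no test made. Within lambda, Iglv2 held 20.3% ± 2.29 and 17.0% ± 1.45 of Iglv usage in Tert+ and Tert- without RT and 19.3% ± 1.76 and 14.4% ± 1.62 after RT. Iglv3 held 22.3% ± 5.17 and 26.1% ± 2.03 without RT and 25.4% ± 4.18 and 33.4% ± 3.48 after RT, so its share was the higher one in Tert- in both states. Iglv1 held a mean of 55.2% over all libraries. Macrophage genes also differed between the populations, as given above, and 4 of 7 (Adgre1, C1qa, C1qb and C1qc) were lower in Tert+ in the average over RT states. In that comparison 0.22% of all genes passed in either direction.

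**Figure D5:**
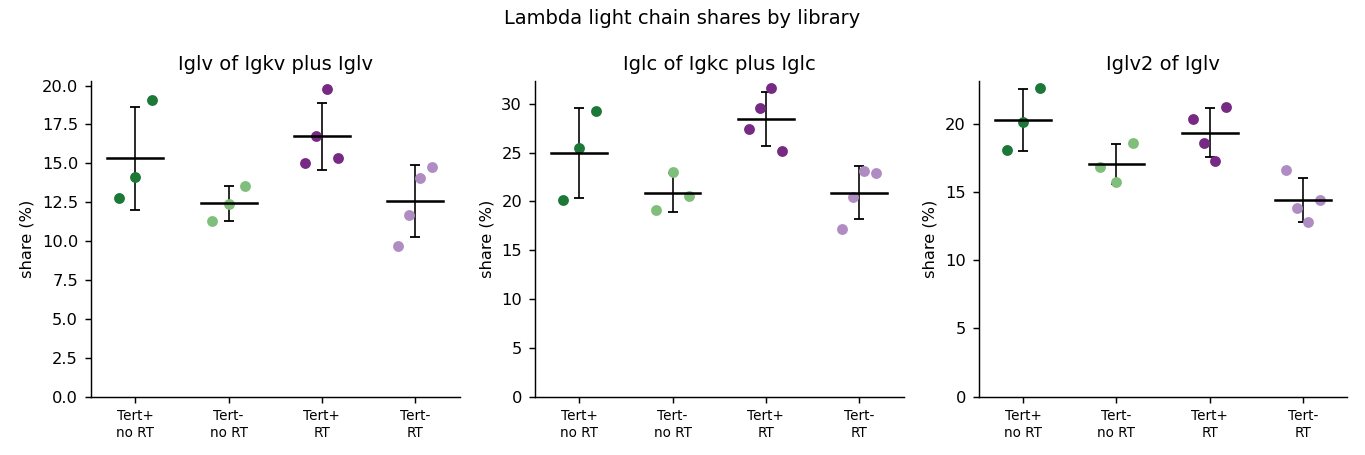
Lambda share of V usage (Iglv of Igkv plus Iglv), lambda share of constant gene expression (Iglc of Igkc plus Iglc) and Iglv2 as a percent of Iglv usage, by group, with 1 point per library, a line at the mean and a bar of 1 SD. In the first panel the 4 Tert+ libraries after RT (15.0% to 19.8%) lie above the 4 Tert- libraries (9.69% to 14.8%).

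Some other genes of antibody production were called lower after RT, whereas no V locus sum passed the threshold. Of 12 tested genes of the constant and joining chain list, 7 fell in the average over populations with edgeR. Of all 15915 genes tested, 7.16% passed as lower in that comparison and 13.4% in either direction. Among them were the class-switched constant genes: Ighg1 changed by -5.06 on the log2 scale (SE 0.74, adjusted p = 0.00107), Ighg2c by -5.33 and Ighg2b by -4.19, and Jchain, which links antibody units into polymers, by -4.58. Ighm, the heavy constant gene of unswitched cells (-0.40, SE 0.12, adjusted p = 0.0344), and the kappa light chain constant gene Igkc (-0.39, SE 0.12, adjusted p = 0.0481) were lower by less. The V segment sums of the 3 loci had changes of -0.43 to -0.39, as given above. Switched constant genes made up 4.35% ± 0.712 of heavy constant expression in Tert+ and 3.82% ± 2.72 in Tert- without RT, and 1.04% ± 0.857 and 0.290% ± 0.0865 after RT.

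Of 9 germinal centre genes, which mark the sites where B cells mutate their V segments, 8 fell after RT. Bcl6, the repressor that maintains the germinal centre state, was at 210.3 ± 74.8 CPM in Tert+ and 174.3 ± 29.9 CPM in Tert- without RT, and at 104.4 ± 5.16 and 89.4 ± 7.45 CPM after RT (log2 fold change -0.99, SE 0.14, adjusted p = 0.00107 with edgeR). Mef2b, a transcription factor of germinal centre B cells, changed by -3.44 (SE 0.33, adjusted p = 6.12e-05 with edgeR). Of 10 plasma cell genes tested 4 fell (Derl3, Jchain, Txndc5 and Xbp1), and of 10 mature B cell genes 0 passed with edgeR. Among all genes tested, 7.16% were called lower.

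Genes that assemble V segments were low or moved both ways. Rag2 had 0 counts in every library and Rag1, its partner in the recombinase, 11 counts in all. Of 13 V(D)J recombination genes tested, Dclre1c and Prkdc of the end-joining machinery rose after RT and Hmgb2 and Xrcc6 fell. Of the surrogate light chain list only Vpreb3 passed the filter, and it fell by 0.87 on the log2 scale (SE 0.14, adjusted p = 0.00187 with edgeR). Of 16 transcription factors that act on immunoglobulin genes, Bach2, Ebf1 and Irf4 rose and Irf8, Spi1, Spib and Tcf3 fell. Of 6 genes of innate-like B cells Bhlhe41 rose, of 7 T cell genes Lck fell, of 7 macrophage genes Cd68 and Csf1r fell, and of 8 epithelial genes 0 passed. Over all genes tested 13.4% passed in either direction, so 1 call in a list of 6 or 7 is near that share.

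IG V pseudogenes and T cell receptor V segments were far below the V segments. The 155 IG V pseudogenes summed to a median of 25.0 CPM per library, 0.597% to 1.11% of the counts over V segments and pseudogenes. The 144 T cell receptor V segments summed to a median of 13.6 CPM (5.81 to 58.6). The 218 V segments together summed to a median of 3029 CPM (2079 to 4950.1).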

How the data were processed

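RNA was measured in 14 libraries. The deposited table holds read counts per gene as the authors made them, 1 column per library, without normalisation. Per the submitters' processing notes, reads were aligned with HISAT2 (no version given) to mm10. The counting program and annotation release are not given in the sources used here. Biotypes, names, positions and lengths are those of the table. Total counts per library were 5520412 to 15943597.

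The tests were made with edgeR 4.0.16 in R 4.3.3. After TMM scaling and filterByExpr, which left 15915 genes, the quasi-likelihood model gave each of the 4 groups its own mean and used robust dispersions from the 14 libraries. Two-sided p-values were adjusted over all genes tested (Benjamini-Hochberg, threshold 0.05). Fold changes on the log2 scale and their adjusted p-values are edgeR's where no tool is named. The same model was fitted to tables in which V segments were summed by locus or by family, the letters and first number of the name. CPM uses TMM-scaled totals. The steps were tested on simulated data.

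Usage is the length-scaled share of a segment in its locus. The effective number is the inverse Simpson index of the counts, corrected for sample size. Effective number, largest share and lambda share were tested by exact permutation (two-sided) of mean log2 values, permuted within population or RT state for averages, and adjusted over 30 tests. Sequences are from GRCm38 with GENCODE M21 exons, compared with edlib 1.3.9.post1 in Python 3.11.15. Figures used matplotlib 3.10.9.

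Alternatives were DESeq2 1.42.0, voom of limma 3.58.1, RLE factors, scaling without immunoglobulin genes, no low-count filter, the replicate number as a block, same-numbered Tert+ and Tert- libraries summed, other diversity indices, counts with or without division by length, pseudogenes included, and leaving out each library. In the edgeR block, Tert comparisons paired same-numbered libraries of 1 RT state, while RT comparisons joined equal numbers across RT states. Segments named were the 6 most used per locus, any that was largest in a library, all Iglv segments, and per comparison up to 8 past the threshold in each direction or, where fewer than 5 passed, the 5 with the smallest unadjusted p. Those of the 5 that add nothing to the comparison are not printed. Families past the threshold and the 4 most used per locus were named. The segments with a peak in 1 library and the joining segments in the closing section were picked from their values. The members and gene lists were chosen with earlier results of these data known. A planned search of promoters was not run. A few genes of the lists are not reported here.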

Additional observations from a re-analysis of the deposited data

Results flagged for a closer look

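In groups of 4 libraries, a value was picked out where the gap from the highest or lowest library to the nearest other took more of the group's range than Dixon's test allows at 95%. Of 76 such groups of segment levels and usage measures, 5 were picked out, and chance alone picks out about 1 in 20. In Tert+ after RT, Igkv8-28 was at 25.5 CPM in replicate 1 against 13.1 to 14.7 in the others, Igkv6-32 was at 36.9 CPM in replicate 3 against 24.0 to 25.3, and Igkv1-117 was at 103.3 CPM in replicate 4 against 66.8 to 73.0. In Tert- after RT, Ighv5-6 was at 31.5 CPM in replicate 2 against 20.8 to 21.4, and Igkv17-127 was at 39.7 CPM in replicate 4 against 59.7 to 63.7. The first pair are among the 8 segments called lower after RT, and both high values lie after RT. Groups of 3 libraries were not examined in this way.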

How the results depend on the processing

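Factors by RLE and scaling without immunoglobulin genes changed no call count for segments or families by over 1.5 times, and the direction of the V segments as a group held under both. The cause of the changes below was not tested. For segments called lower after RT, averaged over both populations (8), DESeq2 gave 15, the replicate block 4, and leaving out 1 library 1 to 23. In Tert- (1 lower) the count was 8 with DESeq2, 0 with limma voom, 0 without the low-count filter, 0 with the replicate block and 0 to 4 without 1 library. In Tert+ (0 lower) it was 1 with DESeq2, 1 without the filter and 0 to 1 without 1 library. For segments higher in Tert+ on average (0), it was 1 with DESeq2, 1 without the filter, 2 with the replicate block and 0 to 1 without 1 library, and after RT (0) 2 with DESeq2. For families lower after RT on average (5), it was 3 with voom, 1 with the replicate block and 1 to 13 without 1 library, in Tert- (0) 3 with DESeq2 and 0 to 4 without 1 library, and in Tert+ (0) 0 to 1. For families higher in Tert+ on average (0), it was 1 with DESeq2, 1 without the filter, 2 with the replicate block and 0 to 1 without 1 library, and after RT 1 with DESeq2.

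The summed Igkv change after RT passed the threshold without the filter (-0.43), with DESeq2 (-0.40, adjusted p = 0.0223) and with limma voom (-0.41, adjusted p = 0.0482), and ran from -0.53 to -0.36 without 1 library. Igkv also passed without Tert+ after RT replicate 4 (-0.46, adjusted p = 0.0480 with edgeR), and Iglv without Tert+ replicate 1 of the groups without RT (-0.54, adjusted p = 0.0365). Igkv did not pass with the replicate block (-0.40, adjusted p = 0.133) or with same-numbered Tert+ and Tert- libraries summed (-0.43, adjusted p = 0.173). In Tert- alone, Ighv (-0.68, adjusted p = 0.0460) and Igkv (-0.71, adjusted p = 0.0395) passed without Tert- replicate 1 of that state. Leaving out 1 library, the log2 changes of the sums ran, for Ighv, from -0.50 to -0.28 for RT on average, -0.68 to -0.24 in Tert-, -0.10 to 0.35 for the difference of RT effects and -0.0018 to 0.48 between populations without RT. For Igkv they ran from -0.71 to -0.37 for RT in Tert-, -0.013 to 0.38 for the difference and -0.081 to 0.33 between populations without RT, and for Iglv from -0.54 to -0.19 for RT on average, -0.55 to 0.17 in Tert+ and -0.0070 to 0.73 for the difference. Iglv3 between populations without RT ran from -0.10, without Tert+ replicate 3, to 0.40.

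The Ighv effective number after RT in Tert- was 1.12-fold with Shannon entropy (exact permutation p = 0.0286). The Ighv largest share after RT in Tert+ was 1.010-fold without division by length, the Igkv effective number after RT in Tert+ 1.00-fold when rarefied, and, with pseudogenes included, the Igkv largest share between populations after RT was 1.00-fold and the lambda share after RT in Tert- 0.998-fold. Without 1 library, Ighv effective number folds ran from 0.949 to 1.02 for RT in Tert+ and 0.966 to 1.08 for Tert+ against Tert- on average. For RT in Tert- they ran from 1.06 to 1.34 (exact permutation p = 0.0667 to 0.2). Ighv largest share folds ran from 0.693 to 1.02 for RT in Tert-, 0.927 to 1.04 in Tert+, and between populations 0.854 to 1.03 on average, 0.717 to 1.05 without RT and 0.959 to 1.07 after RT. Igkv effective number folds ran from 0.974 to 1.05 for RT on average, and between populations 0.972 to 1.04 on average and 0.906 to 0.979 after RT (exact permutation p = 0.0286 without Tert+ replicate 3). Igkv largest share folds ran from 0.882 to 1.04 for RT on average, 0.751 to 1.05 in Tert- and 0.98 to 1.14 in Tert+, and between populations 0.850 to 1.006 on average, 0.723 to 1.013 without RT and 0.944 to 1.10 after RT. The lambda share ran from 0.943 to 1.09 for RT in Tert- and from 1.24 to 1.42 between populations after RT, with exact p-values of 0.0286 to 0.114, above 0.05 without any 1 of the 4 Tert+ libraries or Tert- replicate 1.

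The main fits did not pair libraries by replicate number. Correlations of deviations from group means ran from -0.05 to 0.12 for same-numbered Tert+ and Tert- libraries, and from -0.08 to 0.06 with and without RT. For other-numbered libraries they ran from -0.18 to 0.10 and from -0.18 to 0.13. With means of 3 or 4 libraries, such correlations cannot settle whether libraries are paired. T cell receptor V segments without RT summed to 58.6, 24.1 and 13.2 CPM in Tert+ replicates 1 to 3 and to 53.2, 14.1 and 10.7 CPM in Tert-. After RT, replicate 4 was the highest in Tert+ (38.9 CPM) but not in Tert- (6.38 CPM). Same-numbered Tert+ and Tert- libraries do carry consecutive library numbers. Whether they share an animal was not given, and the fits to 14 libraries took them as independent. With the replicate block, summed Iglv differed between the populations by 0.63 on average (adjusted p = 0.0338) and Iglv2 by 0.97 (adjusted p = 0.0148). The lambda share was higher in Tert+ in 7 of 7 same-numbered pairs. Its test here flipped the signs of the pair differences. The share was 1.34-fold after RT (exact sign-flip permutation p = 0.125) and 1.28-fold on average (exact sign-flip permutation p = 0.015625). Each is the smallest p that its 4 or 7 pairs allow, and neither was adjusted for other tests. In a further replicate block, chosen for segments and families after seeing the data, same-numbered Tert+ and Tert- libraries were summed to 7 samples. It called 1 segment lower after RT, Igkv4-72 (adjusted p = 0.0377 with edgeR), and 0 of 37 families, 8 of which were lower at an unadjusted p of 0.05. Igkv13 was then at an adjusted p of 0.0682 and the other 4 families called above at 0.130 to 0.156, and 2.07% of all features were called lower, against 7.38% with 14 libraries. Depth of 14993 to 67261 V counts per library limits segments with few counts, and 28 of the members were not tested.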

Other observations

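The joining (J) segments, which lie between the V segments and the constant gene, were not among the members and were looked at after the values were seen. In the average over both populations with edgeR, Igkj2 to Igkj5 and Iglj3p were called higher after RT, and no heavy chain J segment was called. Of the 14 J segments, Ighj2, Iglj2 and Iglj4 were not tested. In that comparison 13.4% of all 15915 genes passed in either direction and 7.16% as lower. Calls with 1 library left out, or with same-numbered Tert+ and Tert- libraries summed, are not given for J segments. Igkj3 was at 0.610 ± 0.552 CPM in Tert+ and 1.56 ± 1.08 CPM in Tert- without RT (n = 3 each), and at 6.53 ± 2.45 and 8.19 ± 2.29 CPM after RT (n = 4 each), a log2 fold change of 2.86 (SE 0.60, adjusted p = 0.00684). The change was 2.34 for Igkj4 (SE 0.44, adjusted p = 0.00413), 1.61 for Igkj5 (SE 0.35, adjusted p = 0.00814), 1.39 for Igkj2 (SE 0.38, adjusted p = 0.0273) and 2.45 for Iglj3p (SE 0.55, adjusted p = 0.00982). Igkj1 differed by 0.21 (SE 0.38, adjusted p = 0.768). The other J segments tested were not called and went both ways. The changes were 0.82 for Iglj3, 0.41 for Ighj3, -0.15 for Ighj4, -0.53 for Iglj1 and -0.91 for Ighj1. The 5 Igkj segments summed to 10.9 ± 3.42 and 15.0 ± 6.33 CPM in Tert+ and Tert- without RT and to 35.3 ± 7.88 and 43.6 ± 6.30 CPM after RT. The 6 libraries without RT lay between 6.98 and 22.2 CPM and the 8 after RT between 29.5 and 52.4 CPM, so they did not overlap. These genes are 38 to 43 bases long, and how reads that span them and a neighbouring V or constant gene were counted was not tested.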
